A study of Arabidopsis thaliana with 8 samples.

Results

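MIR779 (AT2G22496) is a microRNA gene of Arabidopsis thaliana, and its precursor RNA was 1 of 108 precursors that gave tags in this SPARE (Specific Parallel Analysis of RNA Ends) series. It was chosen by the counts of its tags of 26 nt or more, which reached at least 20 in every library, and by their most used start, which differed between genotypes. Among the precursors nearest that count limit, the lowest library of MIR167a had 77 counts and that of MIR825 had 12. The lowest library of MIR779 had 485. The libraries came from 10-day-old plants grown in continuous light, with the tissue labelled as seedling whole bud. Wild-type plants (Col) were set beside plants labelled Fiery1 -/-, Hyl1 -/- and Se -/-, with 2 libraries for each of the 4 genotypes. The labels name no allele and do not say whether the libraries of a genotype came from separate plants or cultures, so the spread between them may be technical. Transcripts of FIERY1, HYL1 and SE themselves were not analysed here, so the genotypes could not be checked against the disrupted genes. One hyl1 library (replicate 1) and one se library (replicate 2) carry a different source name from the other 6 libraries.

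A plant microRNA is cut from a folded precursor by the nuclease DCL1, which works in the nucleus with the double-stranded RNA-binding protein HYL1 and the zinc-finger protein SE (SERRATE). Some precursors are cut first near the loop and then towards the base, others in the opposite order, and some are cut repeatedly along 1 arm. FIERY1 is a phosphatase that removes a nucleotide by-product which would otherwise inhibit the XRN exoribonucleases, enzymes that degrade cut RNA from its 5′ end. In SPARE an adapter is ligated to free 5′ ends and the cDNA is made with primers specific to the precursors, so each tag begins at the 5′ end of a fragment. A start can mark a cut, the end of a partly degraded fragment or the native 5′ end of an RNA.

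The MIR779 hairpin is annotated on the plus strand of chromosome 2 in TAIR10.1, at chr2:9560761-9560923. The annotation holds a pair of mature miRNAs on its 3′ arm, miR779.2 at chr2:9560866-9560886 and miR779.1 at chr2:9560902-9560922, and describes the miRNA as being of unknown function. The hairpin is shown with both mature miRNAs in capitals.
MIR779 hairpin: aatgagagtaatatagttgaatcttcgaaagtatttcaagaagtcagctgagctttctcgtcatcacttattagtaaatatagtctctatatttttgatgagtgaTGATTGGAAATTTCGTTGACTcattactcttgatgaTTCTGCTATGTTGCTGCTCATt
The next sequences are the annotated mature miRNAs and the 21-nt stretches that follow miR779.2 on the same strand. Most starts within the hairpin fell at the first base of miR779.2 or of a stretch after it. Capitals mark the seed, bases 2 to 8, which a miRNA uses most to recognise targets.
miR779.2: tGATTGGAaatttcgttgact
stretch at +21: cATTACTCttgatgattctgc
stretch at +42: tATGTTGCtgctcattatgtt
miR779.1: tTCTGCTAtgttgctgctcat
These 4 seeds all differ. The stretches are named by the distance of their first base from that of miR779.2. The stretch at +21 (chr2:9560887-9560907) is not annotated as a miRNA, and that at +42 (chr2:9560908-9560928) begins 6 bases inside miR779.1.

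Upstream of the hairpin on the same strand lie a pair of small nucleolar RNA (snoRNA) genes, snoR128 (AT2G07605, chr2:9560355-9560446) and snoR129 (AT2G07615, chr2:9560536-9560623). They end 314 nt and 137 nt before the hairpin begins. snoRNAs mostly guide chemical modification of ribosomal RNA, and in plants many are released from shared transcripts. The 51-nt tags that start at their annotated first bases are shown beside each other, with their first 13 bases in capitals.
snoR128 tag: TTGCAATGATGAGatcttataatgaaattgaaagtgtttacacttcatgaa
snoR129 tag: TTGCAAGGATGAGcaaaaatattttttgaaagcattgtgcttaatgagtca
Of those first 13 bases 12 are identical, and over all 51 bases 22 are. The only other gene annotated within 3 kb is UCP5 (AT2G22500, chr2:9562774-9564850), a mitochondrial carrier gene on the opposite strand.

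All 98 distinct MIR779 tag sequences matched this locus exactly, each at 1 place in the genome, and none was listed for another precursor. The libraries held from 25753 (hyl1 replicate 2) to 795030 (fiery1 replicate 2) counts of tags of 26 nt or more. MIR779 contributed 2837 and 4528 counts for wild type, 33396 and 48714 for fiery1, 706 and 485 for hyl1, and 3420 and 3571 for se, where each pair gives replicates 1 and 2. Only 5 further MIR779 counts came from shorter tags. The hyl1 profile thus rests on the fewest reads, and the intervals below are exact 95% binomial intervals for single libraries. Since no molecular identifiers were used, they cover counting error only. Positions are given as distances from the first base of miR779.2, with negative values upstream.

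The start that set hyl1 apart lay outside the hairpin, at the annotated first base of snoR128 (-511 nt). It was the most used start in 1 library, hyl1 replicate 1, with 394 of 706 counts, or 55.8% (52.1 to 59.5). In hyl1 replicate 2 it held 150 of 485 counts, or 30.9% (26.8 to 35.3), and came second to the first base of miR779.2. In the remaining 6 libraries it held no counts for wild type, 169 and 459 counts for fiery1 (0.506% and 0.942%), and 2 and 0 counts for se. The 0 counts for wild type allow shares of up to 0.130% and 0.0814%, the upper ends of the exact intervals. These shares are a description, because the differing main start between genotypes was the ground for choosing MIR779. The choice called it a cut position. This start is the annotated first base of another RNA and lies outside the MIR779 hairpin, and whether it marks a cut was not tested.

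snoR129 gave starts in hyl1 alone among the 8 libraries. Its annotated first base (-330 nt) held 5 counts (0.708%) in hyl1 replicate 1 and 127 counts (26.2%) in hyl1 replicate 2, and no counts in the other 6 libraries. The replicates therefore used the pair of snoRNA starts in different proportions, but the snoRNA genes together held similar shares of their MIR779 counts, 56.5% and 57.1% (56.8% ± 0.423, SD, n = 2). That total was 0% and 6.47% for wild type, 0.811% and 2.004% for fiery1, and 4.94% and 0% for se. The 2 hyl1 libraries were thus the highest, with no overlap with the other 6.

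A start 1 base further in, at -510 nt, was used by wild type and se, which had at most 2 counts at the annotated base. It held 0 and 293 counts for wild type, 73 and 490 for fiery1, no counts in either hyl1 library, and 167 and 0 for se. All of the snoRNA-gene counts in wild-type replicate 2 were at this base, and in se replicate 1 all but 2 were. fiery1 was the only genotype with counts at both bases in both of its libraries. A further start inside snoR128, at chr2:9560382, had 29 and 27 counts for fiery1 and none elsewhere.

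Levels in CPM, counts scaled to the library's total of tags of 26 nt or more, were taken separately for snoRNA-gene starts and hairpin starts. Starts within the snoRNA genes stood at 8845 and 10756 CPM for hyl1, against 0 and 2413 for wild type, 598 and 1228 for fiery1, and 4055 and 0 for se. The 0 counts correspond to limits of 53.0 CPM in wild-type replicate 1 and 36.5 CPM in se replicate 2, at 3 counts per library. Starts from the first base of the hairpin onward stood at 6806 and 8077 CPM for hyl1, against 50164 and 34876 for wild type, 73061 and 60046 for fiery1, and 78005 and 43465 for se. The hyl1 libraries were therefore the highest of the 8 for snoRNA-gene starts and the lowest for hairpin starts. In RNA from whole tissue, fewer cells with a transcript and less of it per cell cannot be told apart.

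MIR779 was the only 1 of the 90 precursors with tags of 26 nt or more that had starts within an annotated snoRNA gene, among 287 such genes in the annotation. Tags ended at 51 nt or less, so how far the fragments that begin at the snoRNA genes reached was not read, and whether they ran on to the MIR779 hairpin was not tested. Starts outside the hairpin were also counted in the 17 other precursors with 20 or more counts in every library. Their share was higher in both hyl1 libraries than in both wild-type libraries for 6 of the 17 and lower for 3. For MIR779 the mean share outside the hairpin was 56.8% for hyl1 and 3.31% for wild type, a difference of 53.5 percentage points. The precursors named next were picked after their values were seen. MIR171c, a regulator of GRAS transcription factors, had 89.8% ± 12.5 (SD, n = 2) in hyl1 and 52.0% ± 12.7 in wild type. MIR171b of the same family had a higher difference of means, 44.2 points, but its hyl1 libraries spread so widely (50.4% ± 70.2) that they did not both lie above wild type. MIR156c, whose miRNA targets SPL transcription factors, went the other way, with 8.97% ± 2.54 in hyl1 and 68.3% ± 2.89 in wild type.

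Within the hairpin the leading start in 7 of the 8 libraries was the first base of miR779.2, the end that a cut near the loop would leave on the 3′ arm. Of all MIR779 counts it held 69.1% and 72.8% for wild type, 45.9% and 46.1% for fiery1, 20.3% (17.3 to 23.4) and 41.9% (37.4 to 46.4) for hyl1, and 82.1% and 86.1% for se. The genotypes do not overlap in these shares, and se is the highest. With starts upstream of the hairpin left out, an alternative chosen after seeing the data, the wild-type shares became 69.1% and 77.8%, those of fiery1 46.2% and 47.1%, and those of se 86.4% and 86.1%. The hyl1 libraries then stood on either side of wild type, at 46.6% of 307 counts and 97.6% of 208 counts. The low hyl1 share of miR779.2 starts was thus found in both libraries only when the snoRNA-gene starts were counted.

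**Figure D1:**
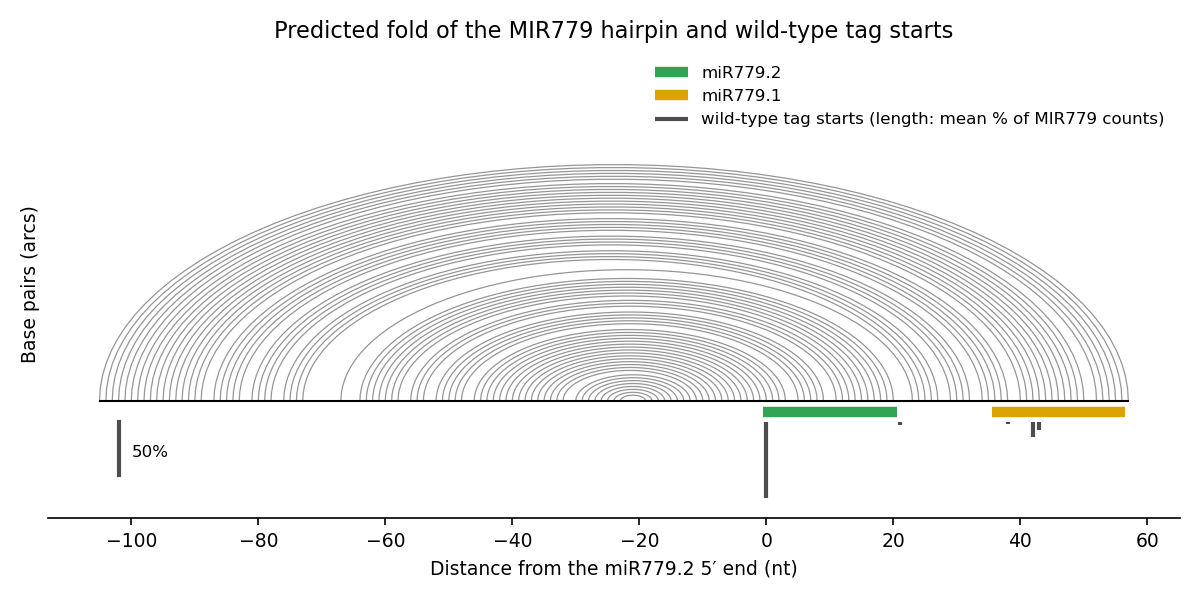
Predicted base pairing of the MIR779 hairpin (RNAfold), with position as distance in nt from the first base of miR779.2 on the x axis and an arc joining each predicted pair. The dark bars under the axis stand for wild-type tag starts, their length the mean share of MIR779 counts in the 2 libraries (the bar at left is a scale of 50%), and the longest stands at the first base of miR779.2, with 70.9%.

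RNAfold gave the 163-nt hairpin a minimum free energy of -69.1 kcal/mol, with 138 bases paired around a loop of 3 bases. The first base of miR779.2 lies 19 nt from the base that closes the loop, and 19 of its 21 bases are paired. In the stretch at +21 there are 16 of 21 bases paired, and in miR779.1 19 of 21.

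The starts at +21 and +42 nt lie 1 and 2 miRNA lengths after that first base, and their use varied between libraries. The tag that starts at miR779.2, with miR779.2 in capitals, also holds the whole stretch at +21.
tag at miR779.2: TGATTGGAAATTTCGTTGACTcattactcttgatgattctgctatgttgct
Of the counts at the 62 positions after the first base of miR779.2, the starts at +21 and +42 nt held 62.0% and 70.0% for wild type. The shares were 55.5% and 60.97% for fiery1, 98.8% and 2 of 5 counts for hyl1, and 41.5% and 97.2% for se. In se replicate 1, where the share was lower, 155 counts fell at +41 and 102 at +43 nt. The replicates of se thus lay far apart, and hyl1 replicate 2 had too few counts for a comparison.

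The start at +21 nt, just after miR779.2, reached 100 or more counts in both fiery1 libraries and in 1 library of wild type and of se. It held 0 and 228 counts for wild type (0% and 5.04%), 1839 and 3707 for fiery1 (5.51% and 7.61%), none for hyl1, and 178 and 3 for se (5.20% and 0.0840%). The 0 counts for hyl1 allow shares of up to 0.521% and 0.758%, the upper ends of the exact intervals.

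The start at +42 nt was the second most used of the hairpin in both wild-type and both fiery1 libraries. It held 544 and 426 counts for wild type (19.2% and 9.41%), 7442 and 10825 for fiery1 (22.3% and 22.2%), 22.9% (replicate 1) and 2 counts or 0.412% (replicate 2) for hyl1, and 6 and 315 for se (0.175% and 8.82%). In hyl1 replicate 1 it was the most used start of the hairpin, with 52.8% of its 307 counts, whereas the other hyl1 library had it at the level of single reads. The next base, +43 nt, held 11.7% and 3.45% of the counts for wild type, 8.16% and 7.62% for fiery1, 1 count in each hyl1 library, and 102 and 2 counts for se. The base before, +41 nt, held 1353 and 1671 counts for fiery1 and 155 in se replicate 1, and at most 1 in each of the other 5 libraries.

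The annotated ends of miR779.1 were little used. Its first base (+36 nt) held 153 and 414 counts for fiery1 (0.458% and 0.850%) and none in the other 6 libraries. The base just after its 3′ end (+57 nt), where a cut near the base of the hairpin would leave an end on the 3′ arm if miR779.1 were released first, held no counts in any of the 8 libraries. On the 5′ arm, a start at -51 nt held 170 counts in se replicate 2 (4.76%) and none in the other 7 libraries. In the predicted fold it is paired with the base at +8 nt, inside miR779.2. At the adjacent base, -50 nt, fiery1 had 29 and 21 counts.

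fiery1 used many more starts than the other genotypes, most of them rare. Of 78 start positions of MIR779 in all, 75 had counts in fiery1 and 18 in any other genotype. The 60 used by fiery1 alone, 56 of them in both of its libraries, together held 7.94% and 7.19% of the fiery1 counts, and the highest single one held 1.84% and 1.09%. Of these 60 positions 42 lay downstream of the hairpin. The share of fiery1-only positions in the other precursors was not counted. The fiery1 libraries also had counts for more precursors, 87 and 88 against 50 to 58 in the other 6 libraries. Whether the many starts are particular to MIR779 was therefore not tested. Starts downstream of the hairpin totalled 1172 and 1461 counts for fiery1 (3.51% and 2.999%), 0 and 7 for wild type, none for hyl1, and 1 and 0 for se.

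The fiery1 libraries were also the deepest, so the number of positions was computed for draws of 485 counts from each library, the MIR779 depth of the shallowest. The expected number was then 32.9 and 29.97 for fiery1, against 3.34 and 6.81 for wild type, 5.37 and 7 for hyl1, and 6.15 and 4.56 for se. Counted from the hairpin onward at 208 counts it was 20.6 and 18.9 for fiery1 and between 3.15 and 5.41 in the other 6 libraries. fiery1 thus had the highest number at equal read depth in both counts, without overlap. Without molecular identifiers the draws equalise reads and not the RNA molecules captured. A difference between libraries in the number of molecules is therefore not removed. Among the downstream starts of fiery1, tags from 16 positions ended at 1 fixed base, chr2:9561032, which lies 109 nt past the end of the hairpin.

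Replicates of fiery1 were the most alike in their shares by start. The share of counts that the 2 libraries of a genotype placed at different starts was 6.29% in fiery1, 17.5% in se, 18.1% in wild type and 47.6% in hyl1. These shares were not adjusted for read depth, and the fiery1 libraries had the most MIR779 counts. Positions with 100 or more counts in one library of a genotype and 6 or fewer in the other numbered 3 for wild type, 0 for fiery1, 2 for hyl1 and 6 for se. These numbers are not comparable between genotypes, because 100 counts are a much smaller share of MIR779 in fiery1 than in hyl1. In wild type these were -510, +21 and +38 nt, the last with 1 and 121 counts, and in hyl1 they were -330 and +42 nt. In se they were -510, -51, +21, +41, +42 and +43 nt. A minor start seen in 1 library of those genotypes therefore does not describe the genotype. The source of these gaps was not tested.

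The abundance of MIR779, unlike its positions, was not used to choose it beyond the minimum of 20 counts, and was tested. It made up 5.02% and 3.73% of tags of 26 nt or more in wild type, 7.37% and 6.13% for fiery1, 1.57% and 1.88% for hyl1, and 8.21% and 4.35% for se. It ranked 5th to 7th among precursors in wild type, fiery1 and se and 11th in both hyl1 libraries. After TMM normalisation, which scales libraries to a shared middle of the precursors, its level was 49788 and 48146 CPM for wild type, 67521 and 47046 for fiery1, 13556 and 26944 for hyl1, and 66984 and 47644 for se. The means were 48967 ± 1161 (SD, n = 2) in wild type, 57283 ± 14478 in fiery1, 20250 ± 9467 in hyl1 and 57314 ± 13675 in se. The hyl1 libraries were the lowest and did not overlap with the others, whereas wild type, fiery1 and se overlapped.

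The level of MIR779 in fiery1 differed from wild type by a log2 fold change of 0.23 ± 0.54 (SE) and did not pass the test (adjusted p = 0.768, edgeR quasi-likelihood test with Benjamini-Hochberg adjustment over 74 precursors). In that comparison 15 of the 74 were called (20.3%), 10 higher and 5 lower, and the median log2 fold change of all 74 was 1.34. The sign for MIR779 reversed when tags of 26 to 29 nt or the filter were dropped and when fiery1 replicate 1 or se replicate 2 was left out.

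In hyl1 the log2 fold change of MIR779 was -1.27 ± 0.55, with an adjusted p of 0.225 in the edgeR test (unadjusted p = 0.0495). None of the 74 precursors was called by edgeR (0%), 14 had an unadjusted p under 0.05, and DESeq2 called 19. MIR779 was among the calls of DESeq2, with -1.36 and an adjusted p of 0.0400. Over the 18 alternatives the edgeR or DESeq2 adjusted p ran from 0.0400 to 0.463, and the value stayed below 0 in each. Without hyl1 replicate 1 it was -0.85 and without hyl1 replicate 2 -1.85, and with a term for the differing source name it was -0.98. Leaving out the starts upstream of the hairpin was an alternative chosen after seeing the data. It gave -2.47 ± 0.60, with an adjusted p of 0.232 by edgeR. It removed 56.5% and 57.1% of the MIR779 counts of hyl1, against 0% and 6.47% of those of wild type. The use of those starts in hyl1 was the ground for choosing MIR779, so the change from -1.27 to -2.47 is a description only.

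In se the log2 fold change of MIR779 was 0.23 ± 0.54 (adjusted p = 0.911, edgeR). Again none of the 74 precursors was called by edgeR (0%), while 16 had an unadjusted p under 0.05 and DESeq2 called 22. With tags of all lengths the MIR779 value became -2.35 ± 0.70, with an edgeR adjusted p of 0.0406. Short tags (under 26 nt) were 86.1% and 83.9% of all counts in the se libraries and from 1.19% to 29.5% in the other 6, and MIR779 had no such tag in se. With a term for the differing source name the se value was 0.58 (adjusted p = 0.644, edgeR). The direction for se thus differed with the tag lengths counted, and the cause was not tested.

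Among the 18 precursors with 20 or more counts in every library MIR779 was the only one outside the conserved families. These were a fixed list of family numbers treated here as conserved. Of the 17 others, 9 also had a main position that differed between genotypes. Of the 21 precursors of non-conserved families, 12 were tested, MIR779 included. In fiery1 2 of these 12 were called higher and none lower, with a median log2 fold change of 1.04 against 1.34 over all 74. The 2 were MIR447a and MIR771, with fitted log2 fold changes of 8.41 and 8.85, which are not bounds since neither had counts in wild type. In hyl1 the edgeR test called none of the 12, with a median of -0.85 against 0 over all 74. In se it also called none, with a median of 0 against 0.10. These medians include precursors fitted at exactly 0, MIR447a and MIR771 among them, the value given where neither genotype has counts. A median of 0 is therefore not a measured lack of change.

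The 5 precursors whose level followed that of MIR779 most closely were all of conserved families, as were most of those compared. Of the 74 tested, 12 were non-conserved, MIR779 included. All 5 also belonged to the 18 with 20 or more counts in every library, where MIR779 was the only non-conserved one. Their families are therefore not a result about MIR779. The measure was the root mean square difference in log2 normalised CPM over the 8 libraries, each precursor centred on its own mean, and its median over the 73 compared was 2.58. MIR162a, whose miRNA targets DCL1, was nearest at 0.53, followed by MIR165a, whose miRNA targets HD-ZIP III transcription factors, at 0.85, and MIR169a, a regulator of NF-YA transcription factors, at 0.98. MIR398b and MIR398c, whose miRNAs target copper/zinc superoxide dismutases, followed at 1.10 and 1.13. In hyl1 these went the other way from MIR779. Relative to its own mean MIR779 stood at -1.62 and -0.62 there, MIR398b at 0.52 and 0.60, and MIR398c at 0.35 and 0.55. MIR165a and MIR169a were below their means in both hyl1 libraries, and MIR162a only in replicate 1.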

How the data were processed

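SPARE libraries were made from total RNA by ligation with T4 RNA ligase, cDNA synthesis with specific primers and PCR, per the labels' protocols. Per the submitters' processing notes, cutadapt and TAIR10 were used. Versions and aligner are not given in the sources read. The deposited files hold raw counts per tag with precursor, position and length. Entries within 5 nt were merged (111 to 108 precursors), and 13 entries with a blank count, none of MIR779, were left out.

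Tags were matched exactly to TAIR10.1, whose RefSeq annotation gave genes and mature miRNAs. Tags of 26 nt or more were summed by start. The test of abundance used edgeR 4.0.16 (quasi-likelihood, TMM, filterByExpr minimum 10, all 8 libraries, a term per genotype), checked on simulated data. That check used log2 fold changes of 5 in either direction, so it does not bear on changes as small as those of MIR779. DESeq2 1.42.0, other tag lengths, scalings, filters, left-out libraries and RNAfold 2.7.2 were also used. Shares were not tested. Total counts ran from 35860 to 821562. Described positions led a library, held 5% or more of its counts, or were an annotated end. Other positions were picked after their values were seen. The 5 precursors most like MIR779 in level were named. MIR779 and the lists were chosen with earlier results of these data known.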

Additional observations from a re-analysis of the deposited data

How the results depend on the processing

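Of 18 alternatives per comparison, the fiery1 change in MIR779 abundance reversed without the filter (-0.64) and with tags from 30 nt upward (-0.067), and ran from -0.64 to 0.55 over the left-out libraries. The hyl1 change kept its sign, from -1.85 to -0.85 over the left-out libraries, and passed the threshold in DESeq2 alone (-1.36). The se change reversed with all tag lengths (-2.35), with tags from 30 nt upward (-0.14) and without the filter (-0.10), and ran from -0.065 to 0.31 over the left-out libraries. The cause of these differences between settings was not tested. With a replicate block the 3 values were 0.22, -1.27 and 0.23, and no MIR779 call changed. With a term for the differing source name of hyl1 replicate 1 and se replicate 2 they were 0.23, -0.98 and 0.58, again with no MIR779 call. Replicate differences of the genotypes correlated at -0.139 to 0.223, and no clear pairing by replicate number was seen. Whether libraries shared a batch or preparation was not tested. Counts within 1 nt put 3.24% (wild type), 1.34% (fiery1) and 2.47% (se) at snoR128, and 46.8% at miR779.2 in fiery1. From the hairpin onward miR779.2 starts were 46.7% in fiery1 and 72.1% in hyl1. The fiery1 calls over all precursors, 15 as reported, were 40 with only those genotypes, 5 without the filter, 1 with all tag lengths, 0 with the replicate block and 0 to 25 over the left-out libraries. For hyl1 the calls, 0 as reported, were 2 without wild-type replicate 1 and 19 in DESeq2. For se, 0 as reported, they were 17 with all tag lengths, 22 in DESeq2, 2 with tags of 30 nt or more, 2 without the filter, 1 with only those genotypes and 0 to 3 over the left-out libraries. Depth limits hyl1 most, with 485 and 706 MIR779 counts.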
